A study of Mus musculus with 15 samples.

Results

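The genes examined here are 10 genes of cellular iron uptake, storage and sensing, chosen by symbol from the 26301 gene numbers counted in each library: Tfrc, Steap3, Slc11a2, Slc40a1, Fth1, Ftl1, Ncoa4, Aco1, Ireb2 and Fbxl5. They were read in 15 RNA-seq libraries of 3T3-L1 cells, a mouse preadipocyte line that becomes adipocytes under insulin, dexamethasone and IBMX, all taken on day 2 of that treatment. The 5 groups of 3 libraries were control cells with an empty shRNA vector (sh-Empty), cells with an shRNA against Jmjd1a (sh-Jmjd1a), and sh-Jmjd1a cells infected again to express LacZ, JMJD1A(WT) or JMJD1A(H1122A), whose iron-coordination site is mutated. JMJD1A is a histone H3K9 demethylase that holds iron in its catalytic site. The comparisons ask which transcripts differed with its knockdown, with its expression and with that site mutated. All groups are selected populations of retrovirally infected cells of a single line, and the 3 rescue groups went through infection and selection a second time, which the sh-Empty and sh-Jmjd1a groups did not. The sources used here do not say whether replicates were separate cultures or infections, so p-values measure the spread between these libraries only.

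Cells take up iron as transferrin bound to the transferrin receptor, reduce it in the endosome and move it to the cytosol. There it is used, stored in ferritin or exported through ferroportin. The iron regulatory proteins IRP1 and IRP2 sense this pool: when iron is scarce they bind hairpins called iron-responsive elements, which blocks translation when the hairpin lies in the 5′ UTR and protects the transcript from decay when it lies in the 3′ UTR. Iron demand grows as preadipocytes build mitochondria during differentiation.

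The hairpin itself could be read in the transcripts. A search of the sense strand of the GENCODE M1 coding transcripts (NCBIM37, the assembly of mm9) for a C, any 5 bases, the loop CAGTGN and 5 bases that pair with the first run in all 5 positions, G with T allowed, found a match in 279 of 22611 genes (1.23%), in the 5′ UTR of 33 (0.146%), in the coding part of 139 (0.615%) and in the 3′ UTR of 124 (0.548%). Among the iron genes 4 of 10 held a match (Fth1, Ftl1, Slc40a1 and Tfrc). Alas2, the erythroid enzyme of heme synthesis, held one in the 5′ UTR that is split by an intron. The 29-base windows below are shown because they are the element that joins storage, export and uptake in 1 system, with the bulged C and the loop in capitals. Fth1 (chr19:10057222-10057250, plus strand), Ftl1 (chr7:52715149-52715177, minus strand) and Slc40a1 (chr1:45982310-45982338, minus strand) had 1 match each in the 5′ UTR. Tfrc had 4 in its 3′ UTR, at chr16:32631305-32631333, chr16:32631684-32631712, chr16:32631749-32631777 and chr16:32631796-32631824, plus strand.
Fth1: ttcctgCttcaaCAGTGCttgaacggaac
Ftl1: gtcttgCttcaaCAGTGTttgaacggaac
Slc40a1: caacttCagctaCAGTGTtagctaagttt
Tfrc, element 1: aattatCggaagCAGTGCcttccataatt
Tfrc, element 2: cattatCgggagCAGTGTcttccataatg
Tfrc, element 3: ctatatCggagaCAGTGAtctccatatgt
Tfrc, element 4: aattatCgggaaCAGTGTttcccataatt
Slc11a2, Steap3, Ncoa4, Aco1, Ireb2 and Fbxl5 had no match to these letters in the transcripts searched, which says nothing of other forms of the element. The same limit holds for the genes with a match, so the numbers of the Tfrc elements count matches only.

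**Figure D1:**
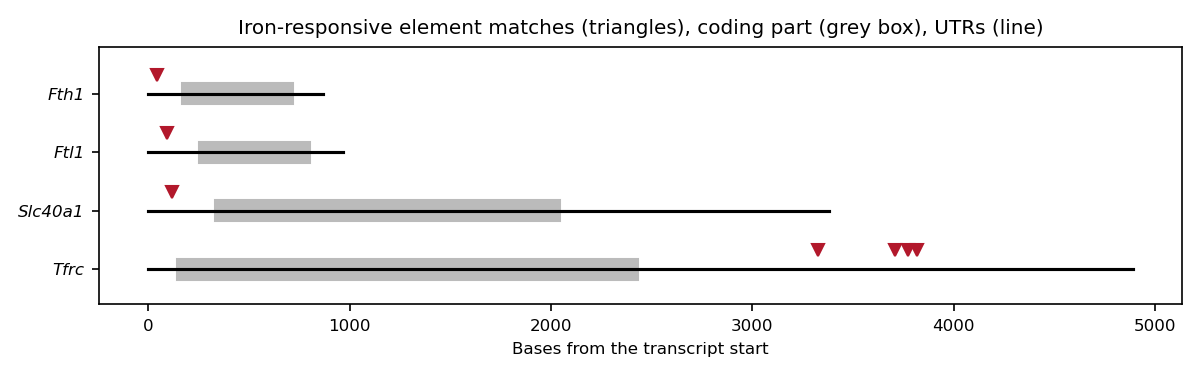
Position of each match (triangles) along the transcript of 4 genes, in bases from the transcript start, with the coding part as a grey box and the UTRs as a line. The matches of Fth1, Ftl1 and Slc40a1 lie before the coding part, and the 4 of Tfrc lie after it.

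Total counts ranged from 11437058 to 25523148 per library, with a median of 12916162. Counts were scaled by TMM to CPM (counts scaled to the library total), within the knockdown set (sh-Empty and sh-Jmjd1a) and the rescue set (the other 3 groups) apart, and compared by the quasi-likelihood test of edgeR, with p-values adjusted over all genes tested by the Benjamini-Hochberg method. A gene is called at an adjusted p under 0.05, and each fold change below is log2 with its standard error (SE). Kdm3a, the gene of JMJD1A, averaged 177 ± 7.31 CPM (SD, n = 3) in the controls and 132 ± 5.77 CPM after knockdown, a log2 fold change of -0.42 (SE 0.048, adjusted p = 2.91e-08). It stood at 119 ± 2.62 CPM with LacZ, 1689.9 ± 69.0 CPM with JMJD1A(WT) and 2197 ± 92.2 CPM with JMJD1A(H1122A). Kdm3a RNA with the mutant was thus at 130% of that with the wild type, and these counts do not measure protein. Adipocyte markers were present in every group, and the 7 endothelial and epithelial markers had at most 10 counts in every library.

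Per length, the ferritin chains stood far above the other iron genes. Averaged over all 15 libraries, Fth1 (ferritin heavy chain) had 1631 ± 125 RPKM (counts scaled to the library total and to the kilobases of merged exons, SD over libraries) and Ftl1 (ferritin light chain) 379 ± 38.4. Next came Aco1 with 32.4 ± 7.87, Tfrc with 25.6 ± 4.07, Steap3 with 21.9 ± 2.22, Ireb2 with 18.5 ± 1.18 and Ncoa4 with 13.5 ± 2.94 RPKM. Fbxl5 (7.45 ± 0.957), Slc11a2 (7.28 ± 0.668) and Slc40a1 (3.44 ± 0.835) were the lowest. Over all libraries the range of the mean ± SD of Fbxl5 overlapped that of Slc11a2, and so did those of Aco1 and Tfrc, of Tfrc and Steap3, and of Steap3 and Ireb2. With the longest transcript as the length Fbxl5 stood at 17.2 RPKM, above Ncoa4. With merged exons as the length, but not with the longest transcript, the order of the first 7 was the same in each of the 5 groups.

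**Figure D2:**
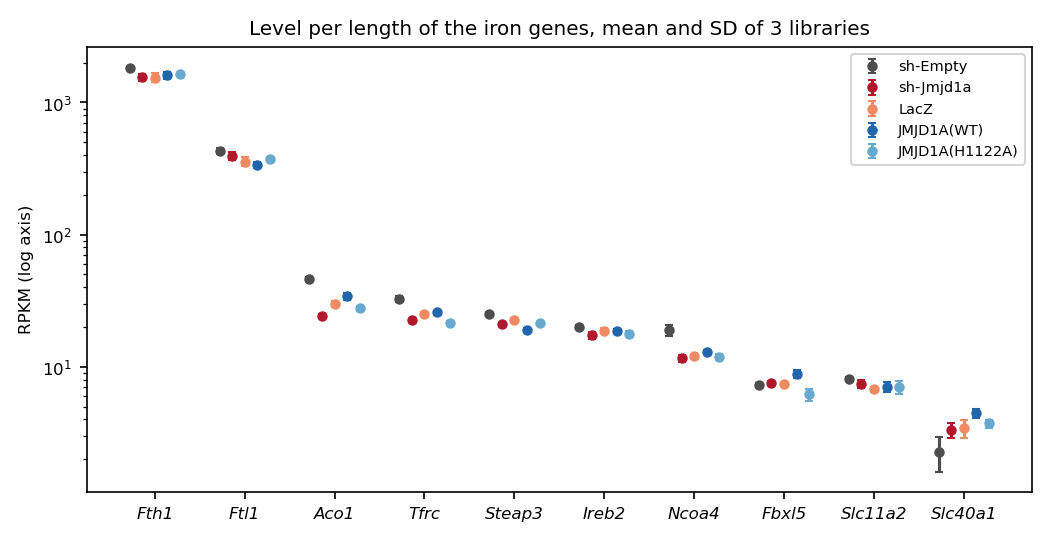
Mean RPKM on a log axis, with the SD of 3 libraries, for each iron gene in the 5 groups, ordered by the mean over all libraries. Fth1 and Ftl1 lie above the other 8 genes in every group, and Slc40a1 is lowest in every group.

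On knockdown most of the iron genes were lower, with Aco1, Ncoa4 and Tfrc down the most and Slc40a1 as the only one called higher. Of the 10 genes, all of which passed the filter on low counts, 7 were called lower and 1 higher in sh-Jmjd1a cells than in sh-Empty cells, where 23.9% of the 12272 genes tested were called lower and 22.3% higher. The median log2 fold change of the 10 was -0.23, and that of all genes tested was -0.0032. Slc11a2 and Fbxl5 were not called.

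Among the uptake genes, Tfrc (chr16:32609006-32632880, plus strand), the transferrin receptor, had 193, 214 and 201 CPM in the sh-Empty libraries and 139.5, 138 and 142 CPM in the sh-Jmjd1a libraries. All knockdown libraries lay below all controls, at 69.0% of the control mean. The log2 fold change was -0.54 (SE 0.047, adjusted p = 1.77e-10). Steap3 (chr1:122087334-122169282, minus strand), the endosomal ferrireductase of transferrin iron, had 151, 140.2 and 145 CPM in sh-Empty cells and 121, 123 and 118 CPM in sh-Jmjd1a cells. Again the groups did not overlap, as for 53.0% of all genes tested, and the log2 fold change was -0.27 (SE 0.048, adjusted p = 2.98e-05). Slc11a2 (chr15:100218329-100255503, minus strand), the divalent metal transporter DMT1 that moves iron out of the endosome, had means of 52.0 ± 2.03 and 46.8 ± 3.23 CPM, with a log2 fold change of -0.16 (95% interval -0.29 to -0.02, adjusted p = 0.0682). It was called without sh-Jmjd1a replicate 3 (-0.19, adjusted p = 0.0261).

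Slc40a1 (chr1:45964915-45982439, minus strand) encodes ferroportin, the cell's iron exporter. It had 5.11, 9.40 and 8.67 CPM in sh-Empty cells, from 58, 109 and 134 counts, and 12.8, 10.1 and 10.5 CPM in sh-Jmjd1a cells. The groups did not overlap, and the first control was the lowest of the 6. The log2 fold change was 0.50 (SE 0.17, adjusted p = 0.0170). The call was lost without sh-Empty replicate 1 (0.31, adjusted p = 0.133) and without sh-Jmjd1a replicate 1 (0.39, adjusted p = 0.1005).

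The storage genes were lower by unequal amounts. Ncoa4 (chr14:32973051-32993041, plus strand), the receptor that delivers ferritin to autophagy so that its iron is released, had 75.6, 85.6 and 92.2 CPM in sh-Empty cells and 51.4, 54.9 and 48.2 CPM in sh-Jmjd1a cells. The knockdown libraries were at 61.0% of the control mean with no overlap, and the log2 fold change was -0.72 (SE 0.070, adjusted p = 2.04e-09). Its processed copy Ncoa4-ps, which can share reads with it, had 112 to 255 counts per library against 589 to 1439 for Ncoa4, and summing both rows gave a log2 fold change of -0.71. Fth1 (chr19:10057193-10059582, plus strand) had 1574, 1553 and 1615 CPM in sh-Empty cells and 1385, 1396 and 1241 CPM in sh-Jmjd1a cells. All 3 knockdown libraries were below the controls, by 0.24 on the log2 scale (-0.24, SE 0.040, adjusted p = 1.60e-05). Ftl1 (chr7:52713314-52715254, minus strand) had 603, 541 and 596 CPM against 562, 539.5 and 481 CPM, and its groups overlapped. Its log2 fold change of -0.14 (SE 0.053, adjusted p = 0.0404) was no longer called under other size factors (adjusted p = 0.0507), without the filter on low counts (0.0674), in DESeq2 (0.0656) or in 1 fit of all libraries (0.138), nor on leaving out sh-Empty replicate 1 (0.187), sh-Empty replicate 3 (0.135), sh-Jmjd1a replicate 2 (0.0558) or sh-Jmjd1a replicate 3 (0.111). Among ferritin-like copies with a row of their own, Ftl2-ps had 0 to 6 counts per library and no Fthl17 row had more than 2, against 15883 to 34159 for Fth1 and 6020 to 10923 for Ftl1. Reads shared with copies that have no row were not assessed.

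The largest fall was in a sensor. Aco1 (chr4:40090114-40146042, plus strand) encodes IRP1, which is a cytosolic aconitase while it holds an iron-sulfur cluster and binds iron-responsive elements when it does not. It had 249.9, 226 and 243 CPM in sh-Empty cells and 123, 124 and 129 CPM in sh-Jmjd1a cells. Knockdown libraries lay at 52.2% of the control mean, and the lowest control was well above the highest knockdown library. The log2 fold change was -0.94 (SE 0.047, adjusted p = 1.02e-15), and it lay between -0.97 and -0.90 with any 1 library left out. Ireb2 (chr9:54711562-54760341, plus strand), which encodes IRP2, had 113, 117 and 122 CPM against 94.3, 102 and 105 CPM. It fell less, without overlap, by -0.23 (SE 0.053, adjusted p = 0.000897). Fbxl5 (chr5:44135855-44212878, minus strand), the iron-sensing ligase subunit that directs IRP2 to degradation, had means of 71.4 ± 2.04 and 73.1 ± 2.33 CPM, with a log2 fold change of 0.04 (95% interval -0.08 to 0.15, adjusted p = 0.635).

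**Figure D3:**
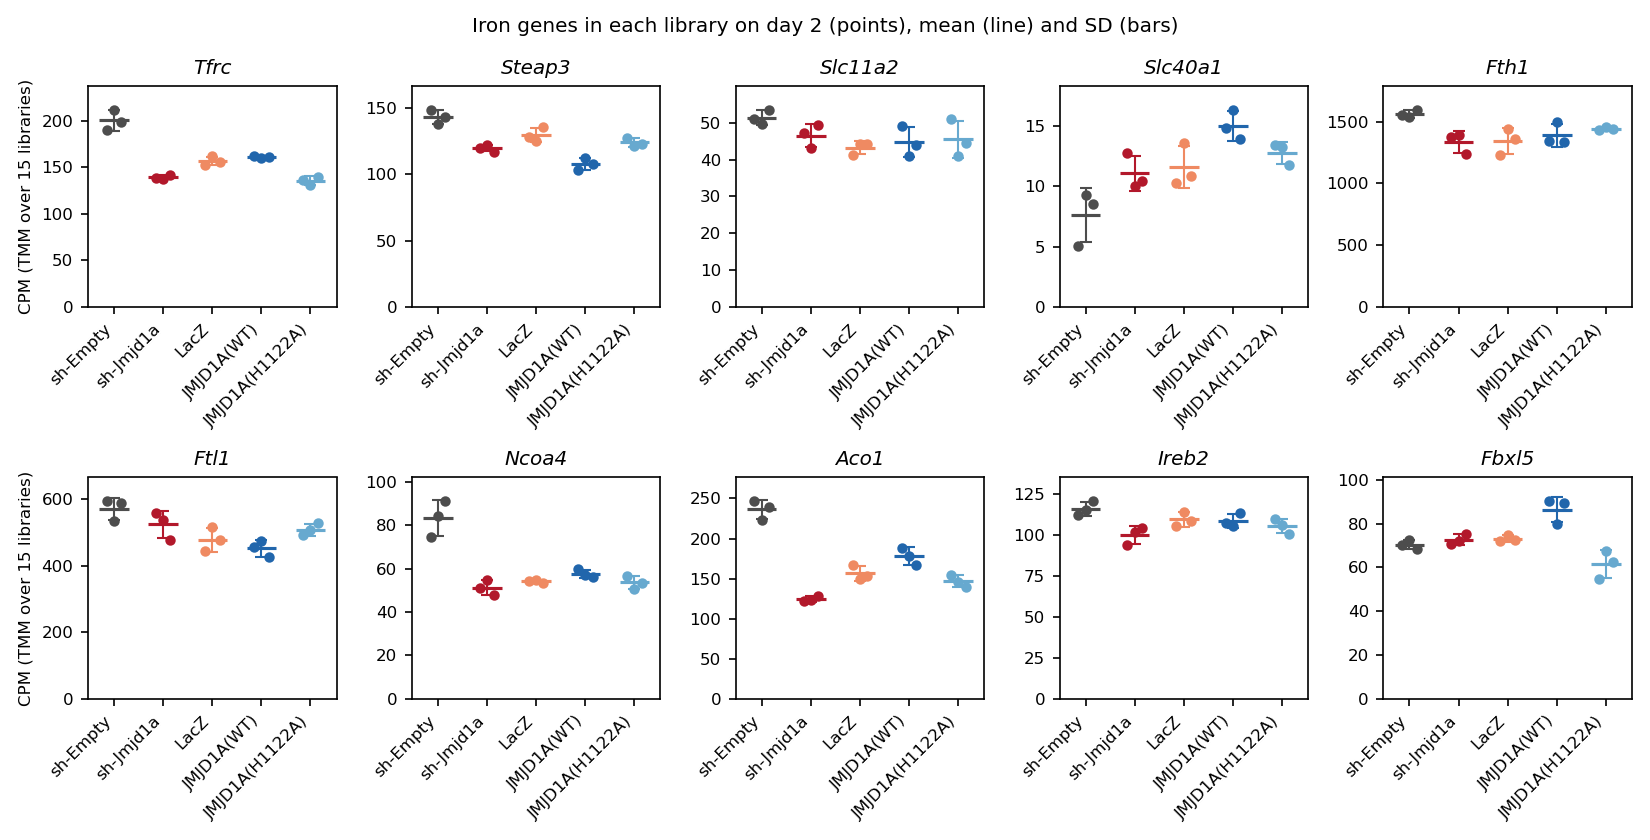
CPM of each iron gene in each of the 15 libraries (points), with the group mean (line) and SD (bars, n = 3), here scaled over all 15 libraries together, so that values differ slightly from those within each set. Aco1, Tfrc and Ncoa4 are highest in the sh-Empty group, Slc40a1 is lowest there, and Fbxl5 is highest with JMJD1A(WT) and lowest with JMJD1A(H1122A).

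In the rescue set the calls and their direction varied from gene to gene. JMJD1A(WT) against LacZ asks what expression of the demethylase changed in knockdown cells. JMJD1A(H1122A) against JMJD1A(WT) asks what differed when its iron site was mutated. Alone it does not tell an effect of the wild type from one of the mutant. Both comparisons share the JMJD1A(WT) libraries, and the LacZ libraries enter 2 of the 3 comparisons of the set. The values are therefore given side by side and not as separate evidence. With JMJD1A(WT), Aco1 and Fbxl5 were higher and Steap3 was lower than with LacZ, 2 and 1 of 10 genes, where 4.98% of 12557 genes were called higher and 4.52% lower. With JMJD1A(H1122A), Fbxl5, Aco1 and Tfrc were lower and Ftl1 and Steap3 were higher than with JMJD1A(WT), 3 and 2 of 10, where 11.7% of genes were called lower and 12.1% higher. Against LacZ, JMJD1A(H1122A) gave 2 of 10 lower, Tfrc and Fbxl5, and 0 higher by edgeR's quasi-likelihood test, where 4.46% and 4.78% were called. The count higher was also 0 at an unadjusted p under 0.05 and in DESeq2.

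Fbxl5 had the largest log2 fold change of the 10 genes in both comparisons with JMJD1A(H1122A). For JMJD1A(WT) against LacZ those of Slc40a1 (0.36) and Steap3 (-0.26) were larger in size. Fbxl5 had 71.6, 74.8 and 72.3 CPM with LacZ, 89.9, 79.3 and 89.2 CPM with JMJD1A(WT), and 54.3, 67 and 62.0 CPM with JMJD1A(H1122A). The 3 groups did not overlap, with JMJD1A(WT) on top and JMJD1A(H1122A) at the bottom. Of all genes, 22.9% did not overlap between JMJD1A(WT) and LacZ, 37.1% between JMJD1A(H1122A) and JMJD1A(WT), and 25.1% between JMJD1A(H1122A) and LacZ. The log2 fold change was 0.25 (SE 0.061, adjusted p = 0.00422) for JMJD1A(WT) against LacZ, -0.50 (SE 0.064, adjusted p = 2.96e-08) for JMJD1A(H1122A) against JMJD1A(WT), and -0.25 (SE 0.066, adjusted p = 0.00961) for JMJD1A(H1122A) against LacZ. The first call was lost without JMJD1A(WT) replicate 3 (0.22, adjusted p = 0.0578), and the last without JMJD1A(H1122A) replicate 1 (-0.17, adjusted p = 0.164). The second was called with any library left out, at -0.57 to -0.42. Fbxl5 overlaps Bst1 and Slc11a2 overlaps Gm5475 on the other strand, and Ftl1 overlaps AC151602.1 on its own strand. Among genes named in other paragraphs, Cp, Cdc42bpa, Heph, Alas2 and Col1a1 also overlap annotated genes. The labels name a library kit that does not keep strand and the study's methods a directional one, so whether reads of the overlapping genes were counted together is not known.

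Aco1 had 166, 149 and 153 CPM with LacZ, 188, 177 and 166 CPM with JMJD1A(WT), and 153, 145 and 139 CPM with JMJD1A(H1122A). JMJD1A(WT) lay above both other groups, which overlapped each other, and its lowest library was only just above the highest LacZ library. It rose by 0.18 on the log2 scale (SE 0.049, adjusted p = 0.0133) from LacZ to JMJD1A(WT) and was lower by -0.28 (SE 0.050, adjusted p = 3.15e-05) with the mutant than with the wild type. The rise was not called without LacZ replicate 2 (0.14, adjusted p = 0.107) or 3 (0.16, adjusted p = 0.0768) or without JMJD1A(WT) replicate 1 (0.13, adjusted p = 0.171). Between JMJD1A(H1122A) and LacZ the log2 fold change was -0.10 (95% interval -0.20 to 0.000373, adjusted p = 0.254). Aco1 was the 1 gene of the 10 called lower on knockdown, higher with JMJD1A(WT) and lower with the mutant, a pattern that 296 of 12202 genes (2.43%) had. The study itself picked genes by this pattern from these libraries, so the pattern of Aco1 is not independent evidence.

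Tfrc had 152, 161 and 155 CPM with LacZ, 161, 158 and 161 CPM with JMJD1A(WT), and 135.5, 129.7 and 138 CPM with JMJD1A(H1122A). The mutant libraries lay below all others of the set, and the LacZ and JMJD1A(WT) groups overlapped. The mutant was lower than the wild type by -0.25 (SE 0.045, adjusted p = 2.35e-05) and lower than LacZ by -0.21 (SE 0.046, adjusted p = 0.00120). For JMJD1A(WT) against LacZ the log2 fold change was 0.04 (95% interval -0.05 to 0.13, adjusted p = 0.694).

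Steap3 went in the direction opposite to Aco1 in both comparisons of this set that hold JMJD1A(WT). It had 127, 125 and 135 CPM with LacZ, 103, 112 and 108 CPM with JMJD1A(WT), and 127, 121 and 122 CPM with JMJD1A(H1122A). The JMJD1A(WT) group lay below both others, which overlapped. Steap3 fell by 0.26 on the log2 scale with the wild type (-0.26, SE 0.048, adjusted p = 0.000108), as it had fallen on knockdown, and was higher with the mutant than with the wild type by 0.19 (SE 0.049, adjusted p = 0.00243).

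Of the storage genes, Ftl1 was called in 1 of the 3 comparisons of the rescue set. It had 456, 471 and 425 CPM with JMJD1A(WT) and 489, 504 and 523 CPM with JMJD1A(H1122A), without overlap. The mutant was higher by 0.17 (SE 0.045, adjusted p = 0.00572), a call lost without JMJD1A(WT) replicate 3 (0.13, adjusted p = 0.0591) and in 1 fit of all libraries (0.17, adjusted p = 0.0741). Fth1 had 1334 ± 105 CPM with LacZ, 1382 ± 89.0 with JMJD1A(WT) and 1431 ± 15.7 with JMJD1A(H1122A), and its groups overlapped. For JMJD1A(H1122A) against LacZ its log2 fold change was 0.10 (adjusted p = 0.274), which was called without LacZ replicate 2 (0.16, adjusted p = 0.0246), as was that of Ftl1 (0.14, adjusted p = 0.0398). Without LacZ replicate 1, Ftl1 was called lower under JMJD1A(WT) than under LacZ (-0.14, adjusted p = 0.0291). Ncoa4 had 54.0 ± 0.603, 57.4 ± 1.84 and 53.2 ± 3.08 CPM in the same order and was not called, with a log2 fold change of 0.08 (95% interval -0.04 to 0.21) for JMJD1A(WT) against LacZ.

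Slc40a1 had 10.3, 13.5 and 10.8 CPM with LacZ, 14.8, 16.3 and 13.9 CPM with JMJD1A(WT), and 13.3, 13.2 and 11.7 CPM with JMJD1A(H1122A). JMJD1A(WT) lay above both other groups, with an adjusted p of 0.0521 against LacZ in edgeR's quasi-likelihood test (log2 fold change 0.36, SE 0.12). Without LacZ replicate 2 it was called (0.48, adjusted p = 0.0141). Ireb2 and Slc11a2 were called in none of the 3 comparisons, and their log2 fold changes lay between -0.06 and 0.07.

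**Figure D4:**
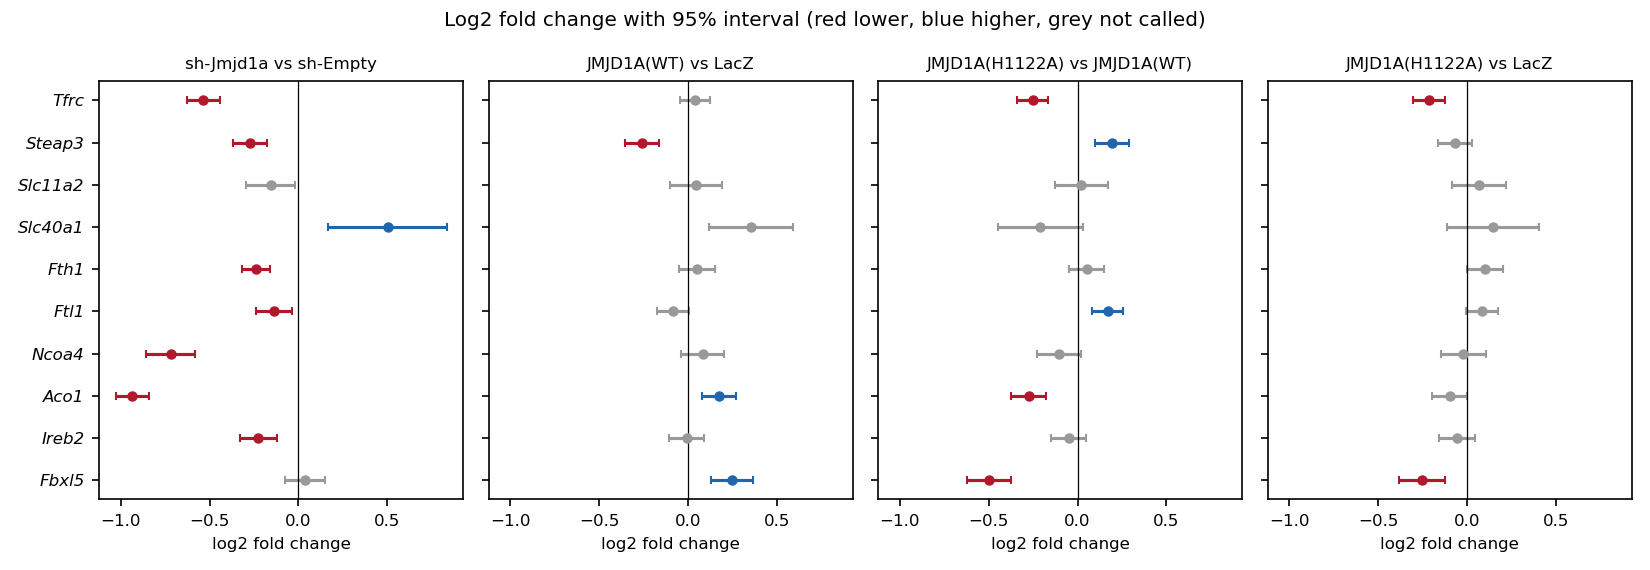
Log2 fold change of each iron gene with its 95% interval in 4 comparisons, colored by the call. Aco1, Ncoa4 and Tfrc stand farthest to the left on knockdown, and Fbxl5 shows the largest difference between JMJD1A(H1122A) and JMJD1A(WT).

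Levels were also set across the sets, in 1 fit of all 15 libraries. JMJD1A(WT) cells were not back at the control: 7 of the 10 genes were lower and 2, Slc40a1 and Fbxl5, were higher than in sh-Empty cells, where 22.8% of 12758 genes were called lower and 22.8% higher. The second infection cannot be told apart from the rescue in these values. Kdm3a itself was far above the control, at 1697 ± 69.0 CPM with JMJD1A(WT) against 174 ± 7.36 CPM in sh-Empty cells. The part of that excess in these differences was not tested. Aco1 was at 75.1% of the control (log2 fold change -0.42, SE 0.048, adjusted p = 3.75e-10), Ncoa4 at 69.1% (-0.55, SE 0.063, adjusted p = 5.10e-10) and Tfrc at 80.4% (-0.31, SE 0.044, adjusted p = 4.71e-08). Slc40a1 was at 197% of the control (0.94, SE 0.14, adjusted p = 5.12e-07) and stayed called higher with any library left out, at 0.74 to 1.07. The calls of Slc11a2 (-0.21, adjusted p = 0.0179) and Fth1 (-0.17, adjusted p = 0.0196) were each lost on leaving out 1 library, for Slc11a2 sh-Empty replicate 3 (-0.17, adjusted p = 0.107) and JMJD1A(WT) replicate 2 (-0.16, adjusted p = 0.0843) or 3 (-0.19, adjusted p = 0.0726), and for Fth1 sh-Empty replicate 3 (-0.16, adjusted p = 0.0580) and JMJD1A(WT) replicate 1 (-0.15, adjusted p = 0.0608) or 3 (-0.14, adjusted p = 0.0742). LacZ cells differed from sh-Jmjd1a cells in 2 of the 10 genes, both higher, where 3.62% of genes were called higher and 3.36% lower. These were Aco1 (0.33, SE 0.052, adjusted p = 9.98e-06) and Tfrc (0.17, SE 0.046, adjusted p = 0.0128), the latter lost without sh-Jmjd1a replicate 2 (0.16, adjusted p = 0.0531) or LacZ replicate 2 (0.15, adjusted p = 0.0804).

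Genes with a match in the search for iron-responsive elements were not all called in the same direction on knockdown. Of the 4 genes printed above, Tfrc, Fth1 and Ftl1 were lower by the amounts given, and Slc40a1 was higher. The calls of Ftl1 and Slc40a1 were each lost on leaving out some single libraries, as given above. RNA counts do not measure the translation that a 5′ UTR element controls. Alas2 had under 2 CPM in every library.

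Other genes of iron handling were called in both directions. Of 47 further genes in 4 lists, 38 were tested on knockdown. The lists were other uptake, other storage and transport into mitochondria, export and the hepcidin axis, and a last list. That last list joined partners of the IRPs and other transcripts taken to hold an iron-responsive element. Of the 38, 11 were lower and 11 higher, where 23.9% of all genes were called lower and 22.3% higher. Their median log2 fold change was -0.05. Of the uptake genes, Trf, transferrin itself, fell from 8.27 ± 1.33 to 2.24 ± 0.468 CPM (-1.86, adjusted p = 5.41e-08) and Lcn2, the siderophore-binding lipocalin, by -0.25. The metalloreductases Steap1 (1.31) and Steap2 (0.90) rose. The iron chaperone Pcbp1 fell (-0.37), and the mitochondrial importer Slc25a37 (0.53) and Herc2 (0.31), a ligase for NCOA4, rose. Among the export genes the ferroxidase Cp fell (-0.75), and Neo1 (0.60), App (0.33) and Hephl1 (3.45, from 1 to 4 counts per control library) rose. Skp1, a part of the ligase that holds FBXL5, fell (-0.45), and Cdc42bpa rose (0.43). Epas1, which was low in both groups, fell from 4.63 ± 0.492 to 1.28 ± 0.105 CPM (-1.86). The adjusted p of these 14 genes lay between 9.67e-13 and 5.77e-05.

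In the rescue set 38 genes of these lists were tested, not all of them the ones tested on knockdown. They gave 1 lower and 3 higher for JMJD1A(WT) against LacZ (4.52% and 4.98% of all genes), 5 lower and 6 higher for JMJD1A(H1122A) against JMJD1A(WT) (11.7% and 12.1%), and 2 lower and 1 higher for JMJD1A(H1122A) against LacZ (4.46% and 4.78%). Trf rose from 4.02 ± 0.663 CPM with LacZ to 7.82 ± 0.444 with JMJD1A(WT) (0.94, adjusted p = 0.000108) and was at 2.94 ± 0.410 with the mutant (-1.38 against the wild type, adjusted p = 2.93e-07). Heph, the ferroxidase that works with ferroportin, had 12.3 ± 1.79, 18.5 ± 2.09 and 8.61 ± 0.780 CPM in that order (0.60 and -1.11, adjusted p = 0.000189 and 3.54e-09). Lcn2 took the same direction (0.47 and -0.37, adjusted p = 7.90e-10 and 8.79e-08) and App the opposite one (-0.22 and 0.24, adjusted p = 1.75e-06 and 1.23e-07). Between mutant and wild type Picalm (-0.16) and Epas1 (-1.51) were lower and Neo1 (0.20), Cdc14a (0.52), Hmox1 (0.19) and Ciao1 (0.20) were higher. Epas1 was low, at 0.632 ± 0.0513 CPM with the mutant and 1.94 ± 0.647 CPM with the wild type. Hmox1 was not called without JMJD1A(H1122A) replicate 3 (adjusted p = 0.0890) or JMJD1A(WT) replicate 3 (0.107), and Ciao1 not in DESeq2 (0.0780) or without JMJD1A(H1122A) replicate 1 (0.0623) or 3 (0.342) or JMJD1A(WT) replicate 3 (0.201). Against LacZ the mutant had less Heph (-0.51, adjusted p = 0.0187) and Epas1 (-1.56, adjusted p = 0.0160) and more Ciao1 (0.39, adjusted p = 0.000410). The Heph call did not hold on leaving out LacZ replicate 1 (0.0614) or 2 (0.104) or JMJD1A(H1122A) replicate 1 (0.0799) or 3 (0.0865), and that of Epas1 without LacZ replicate 3 (0.124) or JMJD1A(H1122A) replicate 1 (0.0646) or 2 (0.0700).

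In JMJD1A(WT) against sh-Empty cells, from the fit of all libraries, 12 of 40 tested genes of these lists were lower and 12 were higher, where 22.8% of all genes were called in each direction. Cp (-0.68), Epas1 (-1.35, at 1.95 ± 0.655 CPM with JMJD1A(WT)), Slc22a17 (-1.12), Lcn2 (-0.32), Pcbp1 (-0.30), Skp1 (-0.26) and Scara5 (-0.20), a receptor for ferritin, were lower. Steap2 (0.83), Neo1 (0.44), Slc25a37 (0.43), Cdc42bpa (0.42), App (0.28), Herc2 (0.24) and Hephl1 (3.27, with the same low control counts) were higher. The adjusted p of these genes lay between 7.33e-16 and 0.00223. Tax1bp1, an autophagy receptor, was lower by -0.10 (adjusted p = 0.0337), a call lost without the filter on low counts (0.0673) and without sh-Empty replicate 1 (0.0680) or 3 (0.120) or JMJD1A(WT) replicate 1 (0.0692) or 3 (0.170).

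**Figure D5:**
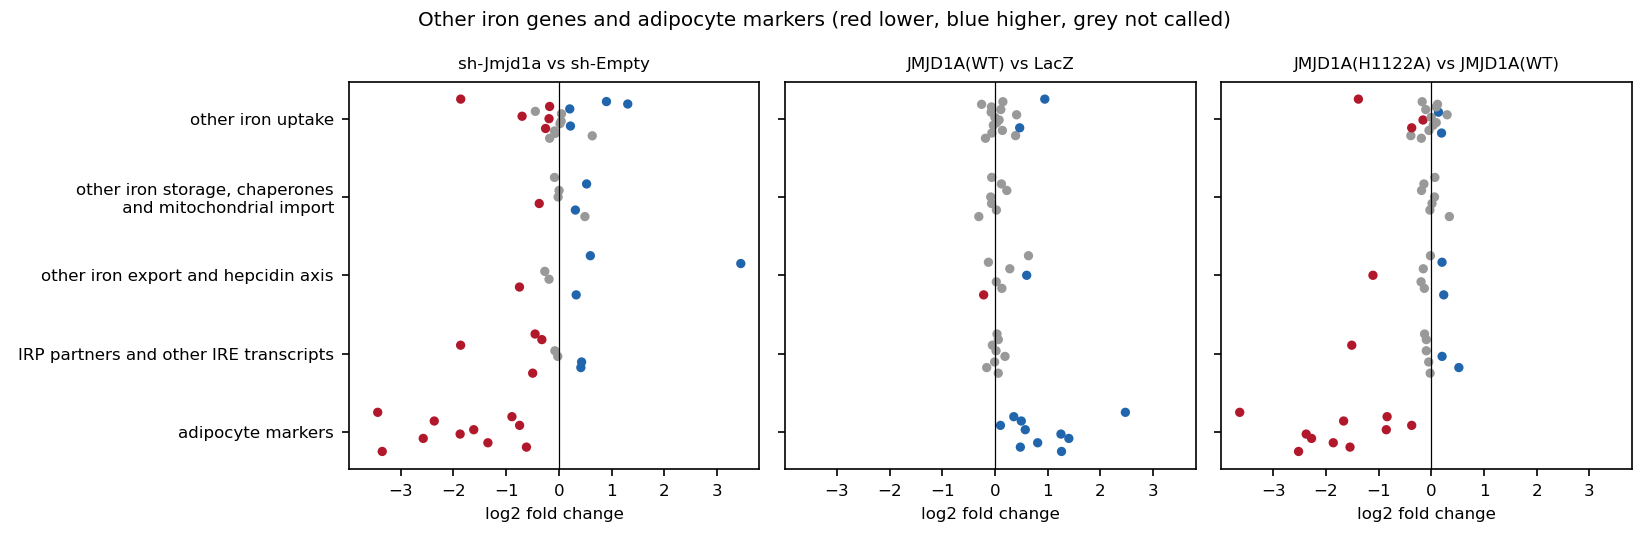
Log2 fold change of each tested gene of the 4 other iron lists and of 10 adipocyte markers (points, spread vertically within a list), colored by the call, in 3 comparisons. The iron genes lie on both sides of 0, and the adipocyte markers lie on 1 side in each comparison.

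Markers of differentiation also differed between the groups. All 10 adipocyte markers were lower on knockdown, higher with JMJD1A(WT) than LacZ, and lower with the mutant than with either. Their summed level was 5419 to 5504 CPM in sh-Empty, 2745 to 2892 in sh-Jmjd1a, 3499 to 3587 with LacZ, 4040 to 4430 with JMJD1A(WT) and 2705 to 2810 with JMJD1A(H1122A), scaled over all libraries. Fabp4 had 560.0 ± 17.9 CPM in sh-Empty and 153 ± 14.2 in sh-Jmjd1a cells, Pparg 124 ± 2.83 and 67.1 ± 2.93, and Adipoq 53.1 ± 4.74 and 5.21 ± 0.273. The summed level of 10 preadipocyte and fibroblast markers was 12829 to 13050 CPM in sh-Empty and 21206 to 27429 in the other 4 groups. The sum rests mostly on Col3a1, Col1a2 and Col1a1, and the members went both ways, with 6 higher and 2 lower of 9 tested on knockdown, 3 higher and 1 lower of 10 for JMJD1A(WT) against LacZ, and 4 higher and 2 lower for JMJD1A(H1122A) against JMJD1A(WT). The 8 macrophage markers summed to 1.49 to 5.46 CPM and the 6 erythroid markers to 0.591 to 2.98 CPM, with the defining genes Ptprc, Adgre1 and Klf1 at no more than 10 counts. In bulk RNA, fewer differentiated cells and less RNA per cell cannot be told apart, and the part of differentiation in the changes of the iron genes was not tested.

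Across the 15 libraries, which share groups and so are not independent points, the genes whose log2 CPM followed Aco1 most closely of 10109 with at least 5 CPM were Pcx (Pearson r 0.98), Ehd2 (0.98) and Mtss2 (0.98). For Tfrc these were Pim3 (0.98), Hspd1 (0.98) and Lrrc59 (0.97), and for Fth1 Akr1a1 (0.91), Ndufs3 (0.90) and Prune1 (0.89).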

How the data were processed

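Per the labels, poly(A) RNA was sequenced, and the authors processed reads with fastp, HISAT2 (mm9) and featureCounts and deposited raw counts per gene, 1 file per library. The strand setting of the counting is not given in the sources used here, and the labels and the study's methods name different library kits, only the latter directional. The files were matched on Entrez Gene number, with symbols from a RefSeq table of GRCm38.p6 (24191 of 26301 matched) and coordinates and lengths from GENCODE M1 on NCBIM37. The totals, 11437058 to 25523148, set the counting precision, which was lowest for Slc40a1 (58 to 357 counts). Replicates of a group differed by more than sampling noise (chi-square per degree of freedom 2.06 to 5.22), and each was counted as 1 sample.

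Fits used edgeR 4.0.16 (R 4.3.3, limma 3.58.1, statmod 1.5.0), with TMM, filterByExpr at a minimum count of 10, robust dispersions, the quasi-likelihood F test without a block and adjusted p-values (Benjamini-Hochberg) called under 0.05. Separate fits served the knockdown set (6 libraries, 12272 genes) and the rescue set (9 libraries, 12557 genes), and 1 fit of 15 libraries (12758 genes) the comparisons across them. The scripts were tested on simulated data. Alternatives were RLE size factors, dropping the filter or asking for 10 counts in every library, the legacy method, fits that are not robust, only the groups compared or all libraries, thinning to the smallest total, the replicate number as a block, DESeq2 1.42.0, the longest transcript as the length, and each library left out. Summing Ncoa4 and Ncoa4-ps was added after seeing the data.

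The iron genes and lists were chosen with earlier results of these data known. Genes named are Kdm3a, the 10 iron genes, up to 4 called genes per other list and comparison, those with an element match, the 3 most similar to Aco1, Tfrc and Fth1, and 3 adipocyte markers. 1 gene that the rule names is not reported here.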

Additional observations from a re-analysis of the deposited data

How the results depend on the processing

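Counts of called genes below are for adjusted p under 0.05, and counts that moved by a small ratio are left out. The 7 iron genes lower on knockdown included Ftl1, whose call was lost under several settings given above. The 7 lower with JMJD1A(WT) than in sh-Empty cells included Slc11a2 and Fth1. Both of these calls were lost without sh-Empty replicate 3 and without JMJD1A(WT) replicate 3. Of the 10 iron genes, the number higher with JMJD1A(H1122A) than JMJD1A(WT) was 1 in place of 2 in 1 fit of all libraries, and the number higher with JMJD1A(H1122A) than LacZ was 1 in place of 0 without the filter on low counts and with the replicate number as a block. The numbers deviated together in 0 of 30 same-numbered pairs at a correlation above 0.1 (range -0.10 to 0.06), a sample correlated best with its own number in 26 of 60 matches (20 if the number did not matter), and nothing in the labels pairs them. The block made 5425 calls on knockdown in place of 5672 and 1413 in place of 1160 for JMJD1A(H1122A) against LacZ, and Slc40a1 was called for JMJD1A(WT) against LacZ (0.38, adjusted p = 0.0248) and Fth1 for JMJD1A(H1122A) against LacZ (0.10, adjusted p = 0.0195).

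Among the other iron genes, 2 in place of 1 were lower with JMJD1A(WT) than LacZ under the block and on thinning. For JMJD1A(H1122A) against LacZ, 1 in place of 2 was lower with at least 10 counts in every library, and 3, 2 and 3 in place of 1 were higher under the block, with only the compared groups and in 1 fit of all libraries. For LacZ against sh-Jmjd1a, 1 in place of 3 was higher with only the compared groups. The causes were not tested.

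Leaving out each library in turn gave, for the 10 iron genes, 0 to 1 higher on knockdown, 1 to 2 lower and 1 to 2 higher with JMJD1A(WT) than LacZ, 1 to 2 higher with JMJD1A(H1122A) than JMJD1A(WT), 1 to 2 lower and 0 to 2 higher with JMJD1A(H1122A) than LacZ, and 1 to 2 higher with LacZ than sh-Jmjd1a. For the other iron genes it gave 0 to 1 lower and 1 to 2 higher for JMJD1A(H1122A) against LacZ and 1 to 4 lower and 1 to 2 higher for LacZ against sh-Jmjd1a. All genes called for JMJD1A(H1122A) against LacZ numbered 674 to 1046, the lowest values without JMJD1A(H1122A) replicate 1 (674) and LacZ replicate 3 (764).

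Leaving out a library changed the sign of 9 log2 fold changes of iron genes that were not called. For JMJD1A(WT) against LacZ these were Slc11a2 (-0.018 to 0.090), Fth1 (-0.012 to 0.10) and Ireb2 (-0.047 to 0.025). Slc11a2 ranged from -0.070 to 0.095 for JMJD1A(H1122A) against JMJD1A(WT). For JMJD1A(H1122A) against LacZ, Slc11a2 ranged from -0.025 to 0.14 and Ncoa4 from -0.065 to 0.021. For LacZ against sh-Jmjd1a, Slc40a1 ranged from -0.058 to 0.18, Fth1 from -0.048 to 0.066 and Fbxl5 from -0.0095 to 0.033. Under the other alternatives no iron gene changed direction in any comparison, with 568 values on the same side of the threshold, 5 calls lost and 3 gained. The depth limits Slc40a1 most.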

Other observations

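Several other iron genes differed between LacZ and sh-Jmjd1a cells, which both lacked a JMJD1A construct. These groups differed in LacZ expression and in the second infection and selection, which cannot be told apart. Lcn2 was lower with LacZ by -0.55 on the log2 scale (SE 0.050, adjusted p = 1.81e-11 in edgeR's quasi-likelihood test), Slc22a17, its receptor, by -0.85 (SE 0.23, adjusted p = 0.0170), Steap2 by -0.24 (SE 0.067, adjusted p = 0.0197) and Ciao1, of cytosolic iron-sulfur cluster assembly, by -0.27 (SE 0.080, adjusted p = 0.0257). Trf was higher by 0.86 (SE 0.25, adjusted p = 0.0251), App by 0.16 (SE 0.033, adjusted p = 0.00101) and Pcbp1 by 0.13 (SE 0.040, adjusted p = 0.0402). In all, 4 of 40 tested genes of the other iron lists were lower and 3 were higher in that comparison, where 3.36% of all genes were called lower and 3.62% higher.

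Of these 7 calls, those of Lcn2 and App were kept under all alternatives run. The other 5 were lost under at least 1, with these adjusted p. Slc22a17 was not called on thinning (0.0584) or without sh-Jmjd1a replicate 3 (0.0890) or LacZ replicate 1 (0.0618) or 2 (0.0672). Steap2 was not called without sh-Jmjd1a replicate 1 (0.0626) or 3 (0.0696) or LacZ replicate 1 (0.109) or 3 (0.0833). Ciao1 was not called without sh-Jmjd1a replicate 2 (0.210) or LacZ replicate 1 (0.0701) or 3 (0.126). Trf was not called with only the compared groups (just above the threshold) or without sh-Jmjd1a replicate 1 (0.0510) or 3 (0.152) or LacZ replicate 1 (0.0838) or 2 (0.0975). Pcbp1 was not called in the fit that is not robust (0.0519), with only the compared groups (0.132), or without sh-Jmjd1a replicate 2 (0.0664) or 3 (0.273) or LacZ replicate 2 (0.0810) or 3 (0.213).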
